A study of Homo sapiens with 11 samples.

Results

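HEK293T cells exposed to the small molecule AA132 at 30 µM, the highest of its 8 doses, were compared with cells given vehicle alone. The members of this comparison were taken from the sample labels and not from any measured value. They are 2 of the 11 samples of the series and 6 of its 33 count columns. The AA132 30 µM group and the vehicle group (0.1% DMSO) hold 3 numbered columns each, and every condition was sampled after 6 h. All cells are labelled wild type and grew in the same medium with serum. AA132 at 15 µM, the next dose down, and thapsigargin (Tg, 500 nM), an inhibitor of the pump that loads calcium into the endoplasmic reticulum (ER), served as further points of reference. HEK293T is an established line from human embryonic kidney that carries the SV40 large T antigen, so a single line stands for the response. The labels list 1 sample per condition and do not say whether its columns come from separate cultures, so the p-values measure only the spread between columns, which may be technical. The columns are called libraries below.

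Proteins enter the secretory pathway through the ER, and an excess of unfolded protein there starts the unfolded protein response. The ATF6 arm and the XBP1s arm raise chaperones, folding enzymes and degradation factors, while the kinase PERK slows translation and favours ATF4, the transcription factor of the integrated stress response. Reactive molecules engage other sensors: KEAP1 holds the transcription factor NRF2 in check until its cysteines are modified, and HSF1 drives the cytosolic heat shock genes when cytosolic protein folding fails. AA132 is one of a family of compounds examined for switching on the unfolded protein response, and the comparison asks which transcripts its highest dose changes.

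Library totals of the 6 libraries ran from 36.4 to 37.3 M counts, and levels are given as CPM, counts scaled to library size with the trimmed mean of M values (TMM). Vehicle library 1 stood apart from the other vehicle libraries. Chi-square divided by its degrees of freedom, a measure that is about 1 where libraries differ by counting error alone, was 64.5 and 49.9 between it and vehicle libraries 2 and 3, against 7.94 between those 2 and 6.82 to 20.2 among the AA132 30 µM libraries. The median log2 level of the 25% of genes with the longest transcripts, minus that of the 25% with the shortest and taken relative to the mean of the lower AA132 doses and AA147, was -0.47 in vehicle library 1, compared with 0.13 and 0.05 in vehicle libraries 2 and 3. The same difference was -0.0016, 0.019 and -0.20 in AA132 30 µM libraries 1, 2 and 3. Counts are therefore also given without vehicle library 1, and against the 6 libraries of AA132 at 0.1 and 0.3 µM in place of vehicle, a reference added after these values were seen.

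The HEK293T label was checked against 10 marker genes of the line. VIM, CDH2, KRT8, KRT18, NEFL, NEFM and LIN28B had counts well above 0 in both groups, PAX2 was near 1 CPM, and SALL4 and PAX8 were at or near 0 (up to 0.27 CPM and 0.05 CPM). The summed level of the list was 2693 to 3246 CPM in vehicle and 2386 to 2583 CPM at 30 µM. Of the 8 tested, KRT18 (-0.50), NEFL (-0.33) and KRT8 (-0.22) were called lower and NEFM (0.31) higher. The KRT8 call fell short of the threshold without vehicle library 1 or AA132 library 1 or 2 (adjusted p = 0.242, 0.171 and 0.0723), the NEFL call without AA132 library 1 (0.0620), and the NEFM call without AA132 library 1, 2 or 3 or vehicle library 3 (0.0503, 0.0832, 0.161 and 0.124). The 20 markers of other cell types summed to 45.0 to 56.0 CPM in vehicle and 38.5 to 39.7 CPM at 30 µM, most of it COL1A1. None of the 8 that could be tested passed, and the blood markers PTPRC and HBB and the pigment cell marker TYR were at 0 in all 6 libraries. In bulk RNA such as this, fewer cells of a type and less RNA per cell cannot be told apart.

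AA132 at 30 µM raised genes of the ER stress, amino acid, oxidative and heat shock responses, HMOX1 by 15.3-fold, and lowered genes that include EDN1, ETV4 and CYP1A1. Of 17793 genes tested with edgeR, 1255 were called at an adjusted p under 0.05, which is 7.05% of all genes. Of these, 687 were higher (3.86%) and 568 were lower (3.19%). Most changes were small, with a median of 0.40 for the higher and -0.35 for the lower genes on the log2 scale, and 973 of the 1255 changed by less than 1.5-fold. The libraries of the groups did not overlap for 1158 of the called genes, a separation that 18.9% of all genes tested also had. Without vehicle library 1 the count was 2038 (11.5%), with 1007 higher (5.66%) and 1031 lower (5.79%). Against 0.1 and 0.3 µM it was 2371 (13.3%), with 1281 higher (7.20%) and 1090 lower (6.13%). Of the 1255 genes, 836 were called in all 3 of these comparisons, 489 of them higher and 347 lower. Other fits called fewer genes. With only vehicle and AA132 30 µM in the fit, so that no other condition adds to the estimate of spread, the count was 75. It was 709 without AA132 library 1 and 742 without AA132 library 2. Without vehicle library 1 the median transcript was 6014 bases for the lower genes, 3090 for the higher genes and 3778 for all genes, and with all libraries it was 3828, 3662 and 3778 bases. The part of transcript length in single calls was not tested.

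**Figure D1:**
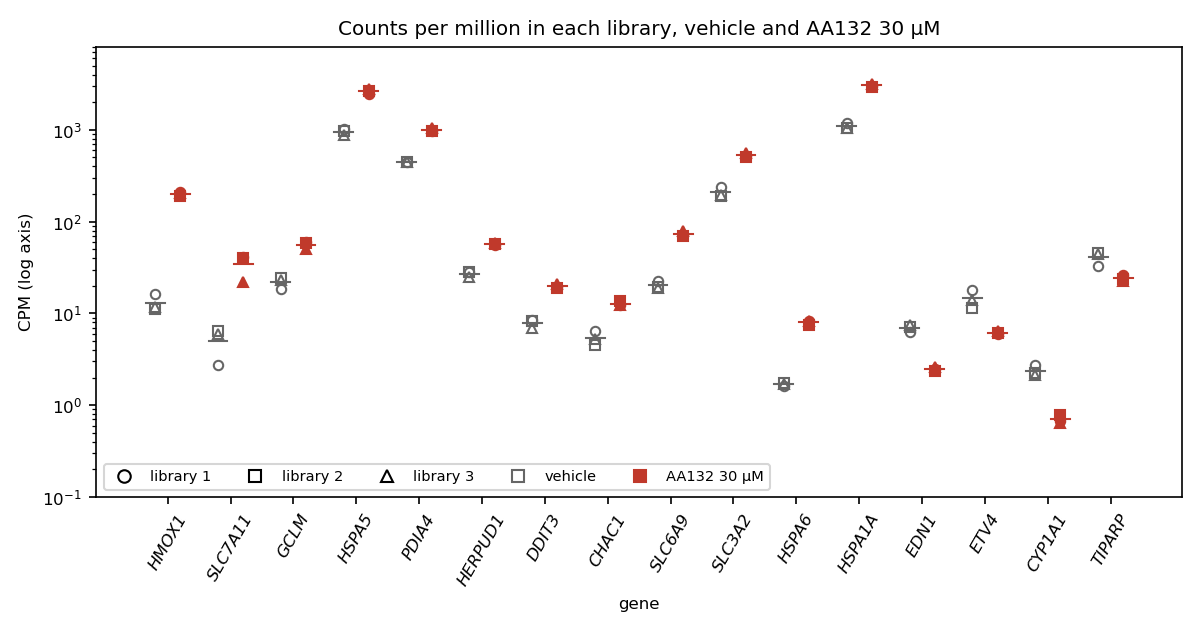
CPM on a log axis for 16 genes in each of the 3 vehicle libraries (grey, open) and the 3 AA132 30 µM libraries (red, filled), with a bar at the group mean. The genes were picked as examples, and the libraries of the groups separate for each of them. For those among the largest rises and falls, such as HMOX1, EDN1 and CYP1A1, no overlap was a condition of that ranking. Vehicle library 1 (circle) lies below the other vehicle libraries for SLC7A11, GCLM and TIPARP.

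Chaperones and folding enzymes of the ATF6 arm rose almost as a block. Of 17 members, 16 were called higher and 0 lower, where 3.86% of all genes were called higher, and the median log2 fold change was 0.70 (SD 0.02 over the medians of the 3 AA132 libraries) beside -0.0013 for all genes. Here and below this SD leaves out the spread between vehicle libraries, whose medians for this list had an SD of 0.09. The count stayed at 16 without vehicle library 1 and against 0.1 and 0.3 µM. HSPA5 (chromosome 9, 125234853 to 125241382), which encodes the master ER chaperone BiP, stood at 1025, 973 and 881 CPM in vehicle libraries 1, 2 and 3 and at 2450, 2646 and 2814 CPM in the AA132 30 µM libraries. The groups lay far apart, and its rise was 2.75-fold (log2 fold change 1.46, SE 0.16, adjusted p = 1.45e-07). PDIA4, a protein disulfide isomerase of the ER, was at 450, 442 and 445 CPM in vehicle and 969, 984 and 1037 CPM at 30 µM (log2 fold change 1.16, SE 0.11, adjusted p = 1.47e-08). HERPUD1, an ER membrane protein that takes part in degradation, went from 28.3, 28.1 and 24.7 CPM to 56.3, 56.7 and 59.2 CPM, a 2.12-fold rise. MANF, a secreted ER stress factor, rose 2.06-fold, and HYOU1, a large chaperone that exchanges nucleotide on BiP, rose 1.89-fold. HSP90B1, the ER form of HSP90 known as GRP94, rose from 1237 ± 63.7 to 2174 ± 71.0 CPM, the largest gain in CPM on the list after HSPA5. The lectin chaperones calreticulin (CALR) and calnexin (CANX) both had a log2 fold change of 0.58, and the disulfide isomerases PDIA6 and PDIA3 had 0.44 and 0.34. P4HB, a further disulfide isomerase, was the 1 member not called: it was at 879 ± 85.5 CPM in vehicle and 981 ± 38 CPM at 30 µM (log2 fold change 0.16, adjusted p = 0.127), and passed without vehicle library 1 (0.24, adjusted p = 0.00754). SEL1L, the partner of the ubiquitin ligase of ER-associated degradation, was called higher (log2 fold change 0.47, adjusted p = 0.0253). Its call did not survive leaving out vehicle library 1 (log2 fold change 0.23, adjusted p = 0.118) or AA132 library 1 (adjusted p = 0.103) or 2 (0.0967).

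Some promoters of these genes are shown because they hold an element known from ER stress genes, which the comparison had not used. The ER stress response element holds CCAAT and CCACG, 9 bases apart, and both strands were searched in RefSeq promoters (GRCh38.p14, 250 bases before to 50 after the start) of the 12337 tested genes that had one. It was found for 18 of them, or 0.146%. Among genes called higher it stood in 10 of 506 (1.98%), and among genes called lower in 0 of 438. On the ATF6 list 6 of 16 promoters held it (37.5%), and those of PDIA4 and HERPUD1 did not. That list was written from general knowledge of ER stress genes, so its share describes the list and is not independent of the element. In the windows below the capitals mark the element with the 9 bases inside it, on the gene's own strand, and a window that begins its capitals with CGTGG holds the element in reverse. HSPA5 lies at chr9:125241381-125241419 (minus strand), with the element at positions -66 to -48 from the start. HSP90B1 holds a pair, at chr12:103930206-103930244 and chr12:103930311-103930349 (plus strand). XBP1, which encodes the transcription factor of its own arm, lies at chr22:28800593-28800631 (minus strand), CALR at chr19:12938374-12938412 (plus strand) and CANX at chr5:179698768-179698806 (plus strand). CRELD2 and ALG12, a pair of genes transcribed away from each other, share 1 element at chr22:49918544-49918582, and it is written here along CRELD2 (plus strand).
HSPA5: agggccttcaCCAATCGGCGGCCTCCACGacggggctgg
HSP90B1: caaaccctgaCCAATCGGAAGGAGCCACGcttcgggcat
HSP90B1: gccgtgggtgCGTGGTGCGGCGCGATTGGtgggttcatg
XBP1: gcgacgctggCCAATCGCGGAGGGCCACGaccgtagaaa
CALR: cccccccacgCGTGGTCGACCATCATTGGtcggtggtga
CANX: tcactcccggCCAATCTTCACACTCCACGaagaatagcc
CRELD2: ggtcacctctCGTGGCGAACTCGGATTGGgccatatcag

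Genes with the element that are on none of the lists were singled out after their values were seen. FICD, an ER enzyme that modifies BiP, had a log2 fold change of 0.74 (adjusted p = 0.00102). ERO1B, an ER oxidase that reoxidizes disulfide isomerases, had 0.55 (adjusted p = 0.00549), TRIM5 0.46 (adjusted p = 0.00495) and ALG12, a mannosyltransferase of N-glycan assembly, 0.29 (adjusted p = 0.0129). The other 8 of the 18 were not called. They include SERP1, an ER membrane protein (0.24, adjusted p = 0.0867), and EIF2A (0.03, adjusted p = 0.892), which share 1 element at chr3:150546700-150546738. A match is a description of letters and not a measured binding site, and no match says only that these letters are not in the window.
SERP1: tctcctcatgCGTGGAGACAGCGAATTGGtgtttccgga

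The XBP1s list and the ER-associated degradation list moved less than the ATF6 list. Of 22 members of the XBP1s, translocon and trafficking list, 7 were called higher and 0 lower, with a median of 0.21. DNAJB9, a BiP co-chaperone and a marker of the XBP1s arm, was at 9.34, 9.34 and 9.39 CPM in vehicle and 15.7, 15.3 and 12.7 CPM at 30 µM (log2 fold change 0.64, SE 0.09, adjusted p = 1e-05). SEC61A1, the pore of the translocon, had 0.41, the COPII coat gene SEC24D 0.43 and SSR3, a translocon-associated subunit, 0.36. Against 0.1 and 0.3 µM 10 of the 22 were called. Of 17 ER-associated degradation genes, 5 were called higher and 0 lower (median 0.16). DERL3, a derlin that helps move proteins out of the ER, went from 16.0, 11.6 and 13.3 CPM to 26.8, 26.8 and 32.4 CPM (2.10-fold, adjusted p = 6.66e-07). The ubiquitin ligase gene SYVN1 had a log2 fold change of 0.46 and DERL2 of 0.43, while EDEM1 (0.02), OS9 (0.01) and HERPUD2 (0.01) were not called.

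Effectors of the PERK arm and the integrated stress response rose in most cases. Of 21 members, 13 were called higher and 0 lower, with a median log2 fold change of 0.58 (SD 0.06). Without vehicle library 1 the count was 14, and against 0.1 and 0.3 µM it was 13. DDIT3 (chromosome 12, 57516588 to 57521737), which encodes the transcription factor CHOP, was at 8.40, 8.28 and 6.89 CPM in vehicle and at 19.6, 19.0 and 20.8 CPM at 30 µM. The AA132 libraries agree closely, and the rise was 2.52-fold (log2 fold change 1.34, SE 0.18, adjusted p = 4.55e-06). CHAC1, an enzyme that degrades glutathione and a target of ATF4, went from 6.43, 4.51 and 5.30 CPM to 12.4, 13.5 and 12.2 CPM (log2 fold change 1.23, adjusted p = 1.52e-06). TRIB3, a pseudokinase that ATF4 and CHOP induce, rose 2.08-fold, and SESN2, a sensor that restrains mTORC1, 1.64-fold. ATF4 itself had a log2 fold change of 0.45 and ATF3 of 0.55. The change of PPP1R15A, the phosphatase subunit GADD34 that reverses PERK signalling, was 0.33, and its call did not survive leaving out AA132 library 3 (adjusted p = 0.117) or vehicle library 3 (0.0874). CEBPG, a partner of ATF4, rose by 0.58 against vehicle and had 0.17 (adjusted p = 0.27) against 0.1 and 0.3 µM. FGF21 and NUPR1, which were under 1 CPM in both groups, were not called.

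Genes that supply amino acids to the cell, many of them targets of ATF4, rose in nearly all cases. Of 23 genes for amino acid transport and synthesis, 20 were called higher and 0 lower (median 0.54, SD 0.02), again 20 without vehicle library 1 and 19 against 0.1 and 0.3 µM. SLC6A9 (chromosome 1, 43991500 to 44031467), the glycine transporter GLYT1, was at 22.3, 19.4 and 19.0 CPM in vehicle and 71.6, 70.4 and 79.1 CPM at 30 µM. The gap is wide beside the spread within each group, at 3.64-fold (log2 fold change 1.87, SE 0.15, adjusted p = 2.36e-09). SLC3A2, the heavy chain shared by several amino acid exchangers, went from 238, 192 and 193 CPM to 525, 508 and 564 CPM (log2 fold change 1.36, adjusted p = 1.47e-08). SLC7A5, the leucine transporter LAT1 that pairs with it, had 60.3 ± 1.27 CPM in vehicle and 117 ± 1.54 CPM at 30 µM. CTH, which makes cysteine from cystathionine, rose 2.0-fold, PCK2, the mitochondrial phosphoenolpyruvate carboxykinase, 1.93-fold and the asparagine synthetase gene ASNS 1.65-fold. PSAT1 of serine synthesis (log2 fold change 0.63) and MTHFD2 of mitochondrial folate metabolism (0.57) rose as well. ALDH18A1, an enzyme of proline synthesis, was at 238 CPM in vehicle and 229 CPM at 30 µM and was not called. Of 20 cytosolic aminoacyl-tRNA synthetases, another class of ATF4 targets, 7 were called higher and 1 lower (median 0.13), or 4 and 2 without AA132 library 3, led by the glycine and alanine enzymes GARS (0.34) and AARS (0.33). VARS, the valine enzyme, was the lower one (-0.32), and its call did not survive leaving out vehicle library 1 (-0.20, adjusted p = 0.107) or AA132 library 1 (adjusted p = 0.0720) or 2 (0.0647).

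The CARE motif TGATGNAA, which ATF4 binds with a C/EBP partner, is shown for genes of the PERK and amino acid lists and for HERPUD1 of the ATF6 list. These examples cover genes that rose and a gene with few counts that did not. The motif stood in 1.75% of all promoters searched, in 2.96% of those called higher and in 1.14% of those called lower. On the PERK list 3 of 18 promoters held it (16.7%), and on the amino acid list 4 of 17 (23.5%). The promoters of DDIT3, TRIB3 and SLC6A9, which rose, did not hold these letters. Capitals mark the match on the gene's strand, and a match that ends in CATCA is the motif in reverse. The windows are chr15:40953252-40953279 for CHAC1 (plus strand), chr7:97872459-97872486 for ASNS (minus strand), chr16:56931956-56931983 for HERPUD1 (plus strand), chr1:212565206-212565233 for ATF3 (plus strand) and chr19:48755460-48755487 for FGF21 (plus strand), where the liver hormone gene was not called (-0.23, adjusted p = 0.838).
CHAC1: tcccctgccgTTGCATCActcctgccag
ASNS: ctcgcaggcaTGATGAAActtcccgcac
HERPUD1: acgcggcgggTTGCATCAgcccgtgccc
ATF3: aaggtcaggaTGATGGAAggctgtcata
FGF21: aacaccaggaTTGCATCAgggaggagga

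**Figure D2:**
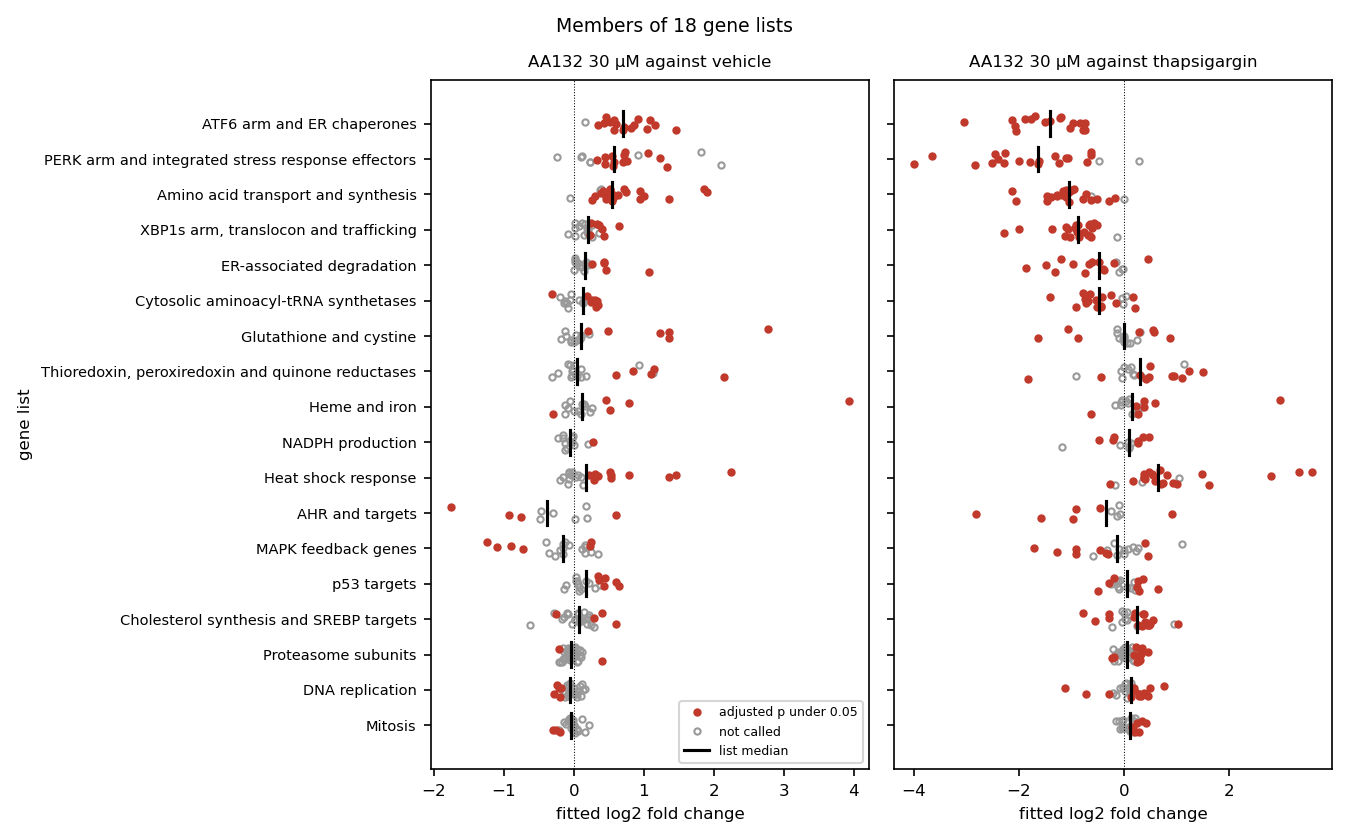
Fitted log2 fold change of each member of 18 gene lists at AA132 30 µM, against vehicle (left) and against thapsigargin (right), with the list median as a bar; filled red points have an adjusted p under 0.05. On the left the ATF6 list and the amino acid list lie almost wholly above 0 (16 of 17 and 20 of 23 called higher), and on the right the same lists lie below 0 while most heat shock genes lie above it.

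Among called genes with at least 1 CPM at 30 µM and no overlap between the groups, the oxidative stress genes HMOX1 and SLC7A11 had the largest fitted rises. HMOX1 (chromosome 22, 35380361 to 35394214), heme oxygenase 1, breaks down heme to biliverdin, iron and carbon monoxide. It was at 16.4, 11.1 and 11.9 CPM in vehicle and 208, 189 and 205 CPM at 30 µM. Every AA132 library exceeded every vehicle library by more than 10-fold, and the fitted rise was 15.3-fold (log2 fold change 3.94, SE 0.35, adjusted p = 6.52e-09). SLC7A11 (chromosome 4, 138164097 to 138242349), the cystine importer xCT, was at 2.74, 6.35 and 6.02 CPM in vehicle and 41.4, 40.0 and 22.2 CPM at 30 µM. Vehicle library 1 was the lowest vehicle library and AA132 library 3 the lowest treated one, and the ranking above required that the groups not overlap. The log2 fold change was 2.77 (SE 0.30, adjusted p = 1.22e-07), and 2.48 without vehicle library 1. On the glutathione and cystine list 6 of 18 were called higher and 0 lower (median 0.10), and this list shares SLC3A2 and CHAC1 with those above. GCLM, the modifier subunit of the enzyme that makes the glutathione precursor, went from 18.3, 24.2 and 23.3 CPM to 59.4, 58.9 and 50.6 CPM (2.57-fold, adjusted p = 9.20e-08). GCLC, the catalytic subunit, rose 1.41-fold. GPX4, which reduces lipid peroxides, was at 243 CPM in vehicle and 214 CPM at 30 µM and was not called, and neither were the glutathione synthetase GSS (-0.12) and the transferase GSTP1 (0.02).

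Of 21 thioredoxin, peroxiredoxin and quinone reductase genes, 5 were called higher and 0 lower (median 0.05). OSGIN1, an oxidative stress induced growth inhibitor, was at 1.88, 1.71 and 1.59 CPM in vehicle and 6.77, 7.19 and 9.13 CPM at 30 µM (4.45-fold, adjusted p = 9.78e-08). SRXN1, which repairs oxidized peroxiredoxins, rose 2.16-fold, and the thioredoxin reductase TXNRD1 1.79-fold. NQO1, a quinone reductase and a common reporter of NRF2, had 6.46, 5.18 and 4.14 CPM in vehicle and 7.83, 8.06 and 8.16 CPM at 30 µM. Its log2 fold change of 0.61 (adjusted p = 0.00617) was not called without vehicle library 3 (0.46, adjusted p = 0.0564). AKR1C3, an aldo-keto reductase, was near 1 CPM, and its call (1.14, adjusted p = 0.0283) fell short of the threshold after leaving out AA132 library 1 (adjusted p = 0.0668) or 2 (0.101) or vehicle library 2 (0.140). AKR1C1, AKR1C2 and AKR1C3 have closely similar sequences, so the share of reads each received is uncertain. All 4 peroxiredoxins on the list, PRDX1, PRDX3, PRDX5 and PRDX6, lay between -0.06 and 0.05 and were not called.

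Heme and iron genes had 4 of 17 members called higher (median 0.11). Besides HMOX1 these were the ferritin chains FTL (226, 166 and 175 CPM in vehicle, 312, 324 and 344 CPM at 30 µM) and FTH1 (1.37-fold), which store iron, and ABCB6 (1.43-fold), a porphyrin transporter. HMOX2, the constitutive heme oxygenase, was at 64.5 CPM in vehicle and 59.1 CPM at 30 µM and was not called. Of 13 NADPH producing enzymes only the malic enzyme ME1 was called (0.27). Among 12 regulators of NRF2, SQSTM1 (1.59-fold), the autophagy receptor p62 that binds KEAP1, and KEAP1 itself (1.29-fold) were called higher, while NFE2L2, which encodes NRF2, was at 102 ± 13.7 CPM in vehicle and 100 ± 6.74 CPM at 30 µM (log2 fold change -0.04, adjusted p = 0.876).

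The antioxidant response element TGACNNNGC, to which NRF2 binds, is common, in 14.8% of all promoters searched, 19.8% of those called higher and 11% of those called lower. It is shown for GCLM (chr1:93909446-93909474, minus strand, in reverse) and TXNRD1 (chr12:104215670-104215698, plus strand), 2 examples picked after their values were seen. The letters stood in 4 of 13 promoters of the glutathione list (30.8%) and 2 of 17 of the thioredoxin list (11.8%). Besides these 2 genes the holders were SLC3A2, which rose, and GSTP1 (0.02), ABCC4 (-0.0009) and CBR1 (-0.004), which were not called. The promoter of SRXN1, which rose, did not hold the letters. Promoters of HMOX1 and SLC7A11 were not in the set searched.
GCLM: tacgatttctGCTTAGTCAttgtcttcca
TXNRD1: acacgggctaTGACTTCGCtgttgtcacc

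Cytosolic heat shock genes rose in some members, the HSP70 genes HSPA6, HSPA1A and HSPA1B most. Of 24 members 11 were called higher and 0 lower (median 0.17, SD 0.02), 9 without vehicle library 1, 7 without AA132 library 2 and 12 against 0.1 and 0.3 µM. HSPA6 (chromosome 1, 161524540 to 161526894), a strictly inducible HSP70, was at 1.63, 1.74 and 1.70 CPM in vehicle and 8.34, 7.54 and 8.30 CPM at 30 µM (4.76-fold, adjusted p = 1.45e-07). HSPA1A was at 1197, 1053 and 1060 CPM in vehicle and 3033, 2957 and 3144 CPM at 30 µM, a 2.76-fold rise (log2 fold change 1.46, SE 0.18, adjusted p = 1.04e-06). HSPA1B gave the largest gain in CPM of any gene named, from 1366 ± 116 to 3499 ± 94.1 CPM. HSPA1A and HSPA1B are near-identical neighbours on chromosome 6, so how their reads were split between them is uncertain. BAG3, a co-chaperone that couples HSP70 to autophagy, rose 1.45-fold and DNAJB1, an HSP40, 1.27-fold. HSP90AA1, the inducible cytosolic HSP90, had 0.30, and the call did not survive leaving out AA132 library 2 (adjusted p = 0.121) or vehicle library 3 (0.0532). Constitutive HSPA8 was at 3187 ± 153 CPM in vehicle and 3326 ± 253 CPM at 30 µM (0.06, adjusted p = 0.646), and HSP90AB1 had -0.05 (adjusted p = 0.77). The small heat shock protein HSPB1 (0.03, adjusted p = 0.91) and the HSP40 DNAJA1 (-0.07, adjusted p = 0.606) were not called either.

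A heat shock element, searched as TTC, GAA and TTC with 2 bases between neighbours or its reverse, stood in 0.365% of all promoters, 0.791% of those called higher and 0.228% of those called lower, and in 5 of 22 promoters of the heat shock list (22.7%). HSPA6 (chr1:161524456-161524488, plus strand) and the uncalled HSPA8 (chr11:123062344-123062376 and chr11:123062169-123062201, minus strand) both held it, and the capitals below run from the first to the last of its letters. The other holders on the list were CHORDC1, which was called higher (0.30), and DNAJA1 and DNAJB6, which were not called. The promoter of HSPA1A, which rose, did not hold the letters.
HSPA6: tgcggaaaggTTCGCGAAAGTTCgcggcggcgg
HSPA8: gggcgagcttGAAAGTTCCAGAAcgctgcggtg
HSPA8: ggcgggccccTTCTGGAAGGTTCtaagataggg

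Among the 12 largest rises, taken over called genes with at least 1 CPM at 30 µM and no overlap between the groups, were several that no list holds. BEST1, a calcium-activated anion channel, was at 0.19, 0.49 and 0.45 CPM in vehicle and 1.41, 1.77 and 1.72 CPM at 30 µM (log2 fold change 2.10, adjusted p = 5.21e-06). MIOX, which opens the ring of myo-inositol, went from 1.53 ± 0.20 to 5.09 ± 0.80 CPM, and CALCB, a calcitonin gene-related peptide, from 1.68 ± 0.62 to 5.18 ± 0.83 CPM. Under Tg, BEST1 was at 7.94 CPM, MIOX at 23.8 CPM and CALCB at 27.0 CPM, each higher than at AA132 30 µM. KLHDC7B, below that level, was at 0 in every vehicle library and at most 0.11 CPM (4 counts) at 30 µM. It was called (adjusted p = 0.0418), and the call was gone when any 1 of the 6 libraries was left out (adjusted p = 0.0585, 0.112 and 0.0710 for AA132 libraries 1, 2 and 3, then 0.0639, 0.0807 and 0.0929 for vehicle libraries 1, 2 and 3). Long noncoding RNAs made up the others. LINC00624 (chromosome 1, 147258885 to 147517875) rose by 2.35 (adjusted p = 0.00118), LOC284561 by 1.82 and LINC01270 by 1.73, all from under 0.6 CPM. The call of LINC01270 fell short of the threshold after leaving out AA132 library 2 (adjusted p = 0.0826), and that of LINC01234 (1.51) without AA132 library 1 (adjusted p = 0.100) or vehicle library 2 (0.0504).

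Few lists held more lower than higher genes, and those of the aryl hydrocarbon receptor and of MAPK feedback were among them. On the AHR (aryl hydrocarbon receptor) list 3 of 10 tested members were called lower and 1, NQO1, higher (median -0.38), where 3.19% of all genes were lower. CYP1A1, the monooxygenase that AHR ligands induce, was at 2.74, 2.23 and 2.12 CPM in vehicle and 0.67, 0.79 and 0.64 CPM at 30 µM (log2 fold change -1.75, SE 0.30, adjusted p = 0.000217). TIPARP, a feedback inhibitor of AHR, went from 32.9, 45.3 and 44.2 CPM to 26.5, 23.9 and 22.4 CPM (-0.75, adjusted p = 0.00108). CYP1B1 fell from 7.84 ± 1.25 to 4.12 ± 0.83 CPM, a call that did not survive leaving out AA132 library 3 (-0.78, adjusted p = 0.0523). CYP1A1 was already at 1.59 ± 0.26 CPM at 0.1 µM and 0.78 ± 0.08 CPM at 0.3 µM, and against those doses the 30 µM difference was -0.67 (adjusted p = 0.107). AHR itself (38 and 43.0 CPM) and its partner ARNT (45.3 and 45.9 CPM) were not called. The core of its response element, TGCGTG, stood in 12.3% of all promoters, 12.7% of those called higher and 12.8% of those called lower, and it can overlap the reversed ER stress element, as at the other HSP90B1 window printed above.

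Feedback genes of growth factor signalling through MAPK had 4 of 21 members lower and 2 higher (median -0.15). ETV4 (chromosome 17, 43527844 to 43579620), an ETS factor that ERK signalling induces, was at 18.1, 11.5 and 14.2 CPM in vehicle and 6.02, 6.05 and 6.41 CPM at 30 µM (log2 fold change -1.24, SE 0.18, adjusted p = 1.39e-05). The vehicle libraries were scattered and the AA132 libraries were not, and the lowest vehicle library lay above the highest treated one. ETV4 is also among the largest falls, for which no overlap was a condition. ETV1, a close relative, fell by 0.89 on the log2 scale and SPRY4, an inhibitor of receptor tyrosine kinase signalling, by 1.1. DUSP6, the ERK phosphatase, had -0.73 (adjusted p = 0.0276), a call that did not survive leaving out any 1 AA132 library (adjusted p = 0.0745, 0.0589 and 0.0927 without libraries 1, 2 and 3) or without vehicle library 3 (0.108). The 2 higher members, DUSP1 and DUSP14, changed by 0.24 and 0.25. Their adjusted p ran from 0.0861 to 0.158 and from 0.0826 to 0.219 over the fits without AA132 library 1, 2 or 3 or vehicle library 2 or 3, and neither was called against 0.1 and 0.3 µM (0.129 and 0.198). Against 0.1 and 0.3 µM 8 members were lower and 0 higher. Immediate early genes were mixed, with 3 of 24 higher (5 without vehicle library 1) and 3 lower: IER3 (-0.83) and EGR1 (-0.61) fell, and ZFP36 (0.91), which destabilizes inflammatory mRNAs, rose.

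Outside the lists, EDN1 (chromosome 6, 12290361 to 12297194), the precursor of the peptide endothelin 1, was at 6.29, 7.03 and 7.45 CPM in vehicle and 2.48, 2.37 and 2.61 CPM at 30 µM (log2 fold change -1.48, SE 0.18, adjusted p = 8.40e-07). FOXCUT, a long noncoding RNA beside FOXC1, fell from 4.01 ± 0.43 to 1.68 ± 0.02 CPM, and MAP2K6, a kinase upstream of p38, from 5.00 ± 0.84 to 2.19 ± 0.24 CPM. SOX5, a transcription factor, was scattered in vehicle, at 1.61, 2.61 and 4.06 CPM, and stood at 1.44, 1.14 and 1.00 CPM at 30 µM (-1.21, adjusted p = 0.00252). ARHGAP24, a GTPase-activating protein, fell from 1.12 ± 0.13 to 0.36 ± 0.05 CPM. Among the 12 largest falls the calls of FENDRR, KCNK2, HOTTIP and LOC101928092, all under 2 CPM, depended on single libraries. FENDRR fell short of the threshold after leaving out AA132 library 1, 2 or 3 or vehicle library 3 (adjusted p = 0.0747, 0.0949, 0.101 and 0.0807). KCNK2 fell short of the threshold after leaving out AA132 library 1 or 2 or vehicle library 1 (0.0966, 0.134 and 0.0644), HOTTIP without AA132 library 2 or vehicle library 1 (0.0638 and 0.0793), and LOC101928092 without AA132 library 1 or 2 (0.117 and 0.0546). In CPM the largest fall was that of the actin gene ACTG1, at 6122, 4650 and 4850 CPM in vehicle and 4071, 4046 and 4061 CPM at 30 µM. Its call (-0.36, adjusted p = 0.0273) fell short of the threshold after leaving out vehicle library 1 (-0.23, adjusted p = 0.143) or AA132 library 1, 2 or 3 (adjusted p = 0.0799, 0.0815 and 0.0546). Nonmuscle myosin MYH9 was even in vehicle, at 1800, 1802 and 1796 CPM, and at 1296, 1404 and 1350 CPM at 30 µM, yet its call (-0.41, adjusted p = 0.0252) fell short of the threshold after leaving out AA132 library 1, 2 or 3 or vehicle library 3 (0.103, 0.0533, 0.0525 and 0.0511).

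Some cell death genes rose. Of 19 p53 targets 6 were called higher and 0 lower (median 0.17), and of 19 BCL2 family and death receptor genes 5 were higher and 0 lower (median 0.09), with BBC3, FAS and TNFRSF10B on both lists. TNFRSF10D, a decoy receptor for the death ligand TRAIL, was at 32.6, 37.9 and 43.4 CPM in vehicle and 62.7, 65.3 and 57.0 CPM at 30 µM (log2 fold change 0.70, adjusted p = 1.80e-05). TNFRSF10B, the death receptor DR5, rose 1.28-fold. GADD45A, a growth arrest gene, rose 1.56-fold and CDKN1A, the cell cycle inhibitor p21, 1.28-fold. BBC3, which encodes the BH3 protein PUMA, had 0.60, a call that did not survive leaving out vehicle library 2 (adjusted p = 0.0650). BAX (0.05), MCL1 (0.02) and BMF (-0.67, adjusted p = 0.0530), a BH3 protein, were not called.

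Autophagy and zinc genes gave a few further rises. Of 26 autophagy and lysosome genes 5 were higher and 1 lower (median 0.13), and 9 were higher without vehicle library 1. GABARAPL1, an ATG8 family member, was at 24.0, 25.9 and 26.2 CPM in vehicle and 38.6, 44.9 and 51.2 CPM at 30 µM (1.77-fold, adjusted p = 1.28e-06), and WIPI1, a phosphoinositide-binding protein of the early autophagosome, rose 1.62-fold. BECN1 was the lower member (-0.30). Of 9 metallothionein and zinc genes that could be tested 3 were higher (median 0.39): the importer SLC39A14 (1.56-fold), the exporter SLC30A1 (1.55-fold) and MT1X (0.57), whose call did not survive leaving out AA132 library 2 or 3 or vehicle library 2 or 3 (adjusted p = 0.0529, 0.140, 0.0747 and 0.113).

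The other lists are given beside the 3.86% of all genes called higher and the 3.19% called lower. The share called lower was above that of all genes for DNA replication, mitosis, TGF-beta and translation factors, among others. Proteasome subunits lay close to both shares. They had 1 of 37 higher, PSMD5 (0.41), and 1 lower, PSMC3 (-0.21), with a median of -0.03. Against 0.1 and 0.3 µM 3 of them were higher and 0 lower, where 7.20% of all genes were higher and 6.13% lower. Cholesterol synthesis and SREBP targets had 3 of 27 higher, among them SREBF1 (1.52-fold), and 1 lower. CYP51A1 and HSD17B7, also higher, and FDPS, the lower member, lost their calls in some fits that left out 1 library. Their adjusted p rose to 0.0817 (without AA132 library 1), 0.129 (without AA132 library 3) and 0.290 (without vehicle library 1). DNA replication genes had 0 of 31 higher and 5 lower, the helicase subunits MCM2, MCM3 and MCM7 (-0.28) among them, and mitosis genes 0 of 23 higher and 3 lower, with BUB1B at -0.30. Without vehicle library 1, mitosis genes had 1 higher and 6 lower. DNA replication genes had 2 lower without AA132 library 1 and 3 without AA132 library 2 or vehicle library 2. Mitochondrial chaperones and proteases had 0 of 14 higher and 1 lower, TRAP1 (-0.29). TGF-beta and BMP targets had 0 of 17 higher and 3 lower, the inhibitory factors SMAD6 (-0.52) and SMAD7 (-0.35) and the ligand TGFB1 (-0.35). Translation factors had 3 of 22 higher, with EIF4EBP1, the repressor of cap-dependent translation and an ATF4 target, at 0.55, and 3 lower, all subunits or cofactors of initiation (EIF3A, EIF3B and EIF5B), of which 0 were called without AA132 library 1. Hypoxia and glycolysis genes had 2 of 24 higher (NDRG1 and SLC2A1) and 1 lower. Notch genes had NOTCH1 higher (1.54-fold) and HES1 lower (-0.36) among 19, and G1 regulators had CDKN1A higher and CCND1 lower (-0.42) among 14. The TGFB1 call did not survive leaving out vehicle library 1 (-0.13, adjusted p = 0.314) or AA132 library 1 (0.0982) or 2 (0.0964), the PSMC3 call after leaving out vehicle library 1 (0.274) or AA132 library 1 (0.171) or 2 (0.128), and the HES1 call after leaving out vehicle library 1 (0.0714) or AA132 library 2 (0.0674). CCND1 fell short of the threshold after leaving out AA132 library 2 or 3 or vehicle library 3 (0.0798, 0.104 and 0.110), EIF3A without AA132 library 1 or 3 or vehicle library 2 or 3 (0.128, 0.0883, 0.202 and 0.0911), EIF3B without AA132 library 1 (0.0884), EIF5B without AA132 library 1 or 2 or vehicle library 1 or 2 (0.138, 0.0709, 0.0678 and 0.0724), and MCM2 without AA132 library 1 or 2 or vehicle library 2 (0.116, 0.0972 and 0.0685). Of 13 mitochondrially encoded mRNAs ND5 was called higher (0.47), with AA132 libraries at 2400, 2872 and 3145 CPM, and the call did not survive leaving out vehicle library 1 or 3 or AA132 library 2 or 3 (0.0744, 0.0991, 0.0865 and 0.137). Of 13 inflammatory and NF-kB targets that could be tested ICAM1, under 1.1 CPM in every library, was called (adjusted p = 0.0497). Its call did not survive leaving out AA132 library 1, 2 or 3 (adjusted p = 0.198, 0.0826 and 0.0568) or vehicle library 1 or 3 (0.139 and 0.128). Of 15 snoRNA host genes 1, SNHG7 (0.32), was higher, and 4 without vehicle library 1. The SNHG7 call did not survive leaving out AA132 library 1 or 3 (adjusted p = 0.0875 and 0.100) or vehicle library 2 or 3 (0.146 and 0.0912).

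**Figure D3:**
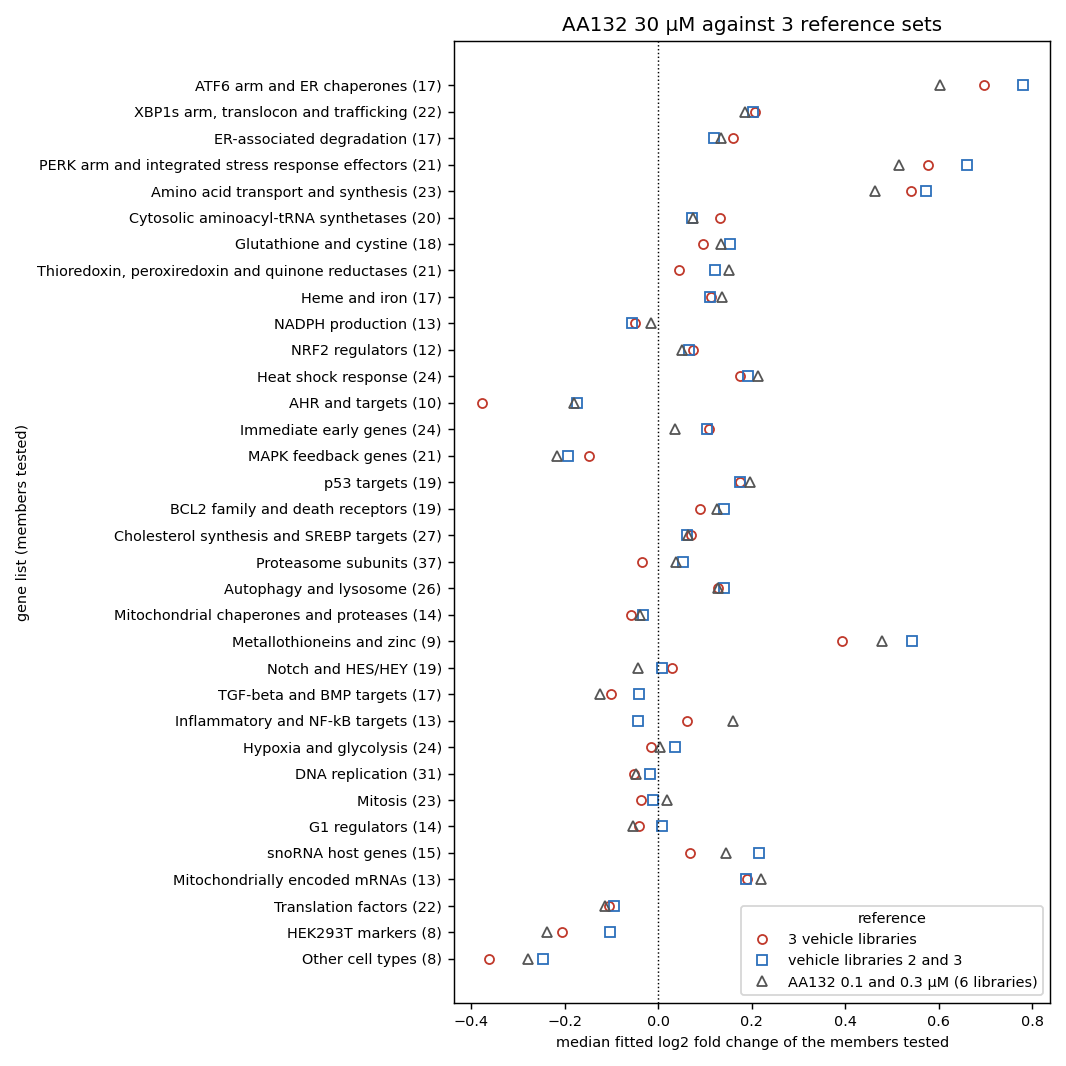
Median fitted log2 fold change at AA132 30 µM of the tested members of each of 34 gene lists, against the 3 vehicle libraries (circles), vehicle libraries 2 and 3 (squares) and the 6 libraries of AA132 0.1 and 0.3 µM (triangles). The ATF6, PERK and amino acid lists stay above 0.4 with every reference, while the AHR list shifts from -0.38 to -0.17 and -0.18.

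The top dose was also tested against the next one down, 15 µM. The edgeR test called 0 of 17793 genes (0%), with 1256 genes at an unadjusted p under 0.05, and DESeq2 called 4. HMOX1 was at 155 ± 3.30 CPM at 15 µM and 201 ± 10.0 CPM at 30 µM (log2 difference 0.37, SE 0.30), SLC7A11 at 29.8 ± 1.12 and 34.5 ± 10.7 CPM (0.21, SE 0.26) and HSPA5 at 2806 ± 109 and 2636 ± 183 CPM (-0.09, SE 0.16). HSPA1A (-0.01, SE 0.17) and DDIT3 (-0.07, SE 0.17) had differences smaller than their errors. EDN1 was at 4.59 ± 0.43 CPM at 15 µM and 2.49 ± 0.12 CPM at 30 µM, a difference of -0.89 (SE 0.18) that was several times its error before adjustment (unadjusted p = 2.46e-05) and missed the threshold after it (adjusted p = 0.238). ASNS (0.24, SE 0.07) and MYH9 (-0.34, SE 0.12) also missed it. These values do not show that the doses act alike. Over the whole dose range HMOX1 and SLC6A9 had their highest AA132 mean at 30 µM, HSPA5, HSPA1A and DDIT3 at 15 µM, and CYP1A1 its lowest mean at 6 µM (0.47 ± 0.12 CPM).

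**Figure D4:**
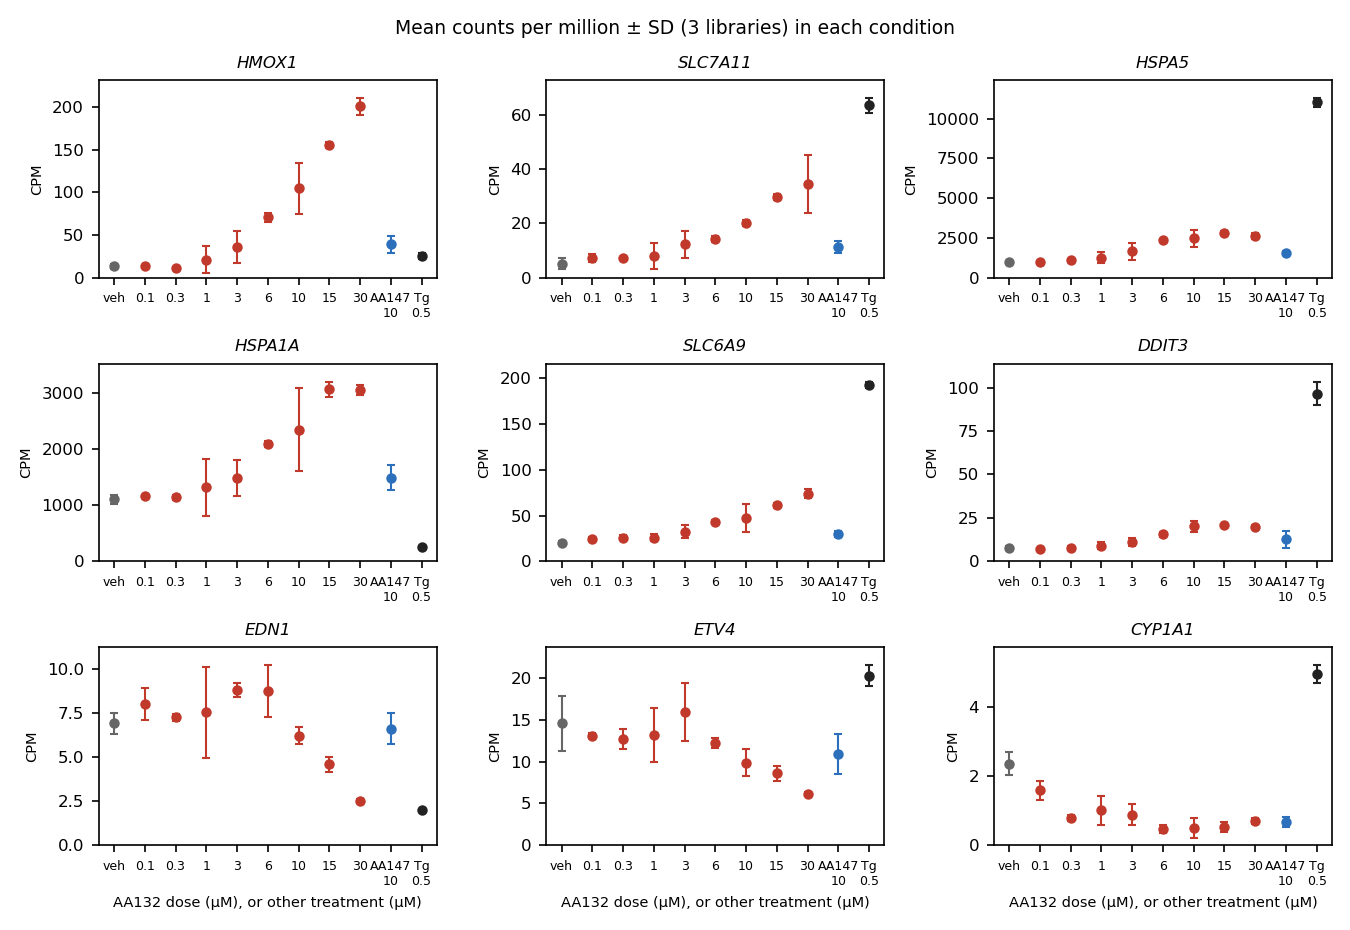
Mean CPM with SD over 3 libraries for 9 genes in vehicle, at each AA132 dose, under AA147 10 µM and under thapsigargin 0.5 µM (linear axes from 0, with categories evenly spaced). HMOX1 reaches 201 CPM at 30 µM against 25.5 under thapsigargin, HSPA5 levels at 2806 and 2636 CPM at 15 and 30 µM against 11023 under thapsigargin, and EDN1 drops to 2.49 CPM at the top dose.

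Set beside Tg, the top dose of AA132 gave lower levels of ER stress genes and higher levels of heat shock genes and HMOX1. Of 17793 genes, 5305 differed (29.8%), 2553 higher (14.3%) and 2752 lower (15.5%) at AA132 30 µM. The 2 comparisons share the AA132 libraries. All 17 ATF6 list members were lower than under Tg (median -1.40), as were 21 of 22 XBP1s list members (-0.87), 19 of 21 PERK list members (-1.64) and 21 of 23 amino acid genes (-1.05), with 0 higher on any of these lists. HSPA5 was at 2636 ± 183 CPM at AA132 30 µM and 11023 ± 276 CPM under Tg (log2 difference -2.06, adjusted p = 5.23e-12), HERPUD1 at 57.4 ± 1.56 and 471 ± 10.4 CPM (-3.04) and TRIB3 at 56.0 ± 1.23 and 398 ± 9.0 CPM (-2.83). SLC3A2 was an exception, at 532 ± 28.8 and 530 ± 19.7 CPM (0.01, adjusted p = 0.974). BHLHA15, a transcription factor of secretory cells, was at 0.69 ± 0.13 CPM at AA132 30 µM and 11.3 ± 0.73 CPM under Tg, and in vehicle at 0.65 ± 0.10 CPM. FGF21 was likewise at 0.25 ± 0.08 CPM against 3.96 ± 0.43 CPM, and KLHDC7B, with at most 0.11 CPM in an AA132 library, reached 5.50 ± 0.95 CPM under Tg.

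On the heat shock list 20 of 24 members were higher at AA132 30 µM than under Tg and 1 was lower (median 0.64). HSPA1A was at 3045 ± 94.1 CPM against 255 ± 12.5 CPM (log2 difference 3.58, adjusted p = 8.06e-16), which places vehicle, at 1104 ± 81.1 CPM, between them. HSPA6 was at 8.06 ± 0.45 against 1.16 ± 0.21 CPM and HSPA8, not called against vehicle, at 3326 ± 253 against 1087 ± 39.8 CPM. HMOX1 (log2 difference 2.97, adjusted p = 9.73e-09), SRXN1 (0.95), GCLM (0.87) and NQO1 (0.91) were higher than under Tg, while SLC7A11, which ATF4 also drives, was lower (-0.88, adjusted p = 0.00913) and GCLC was not separated (-0.09, adjusted p = 0.43). Of 21 thioredoxin, peroxiredoxin and quinone reductase genes 9 were higher and 2 lower. Of 10 tested members of the AHR list 5 were lower than under Tg and 1, NQO1, was higher, with CYP1A1 at 0.70 ± 0.08 CPM against 4.96 ± 0.26 CPM (-2.82).

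With only the 6 libraries of vehicle and AA132 30 µM in the fit, so that the spread rests on them alone, 75 genes were called. Of the 187 called genes that the lists or the rules for named genes cover, 50 kept their call. They include HMOX1, SLC7A11, OSGIN1, GCLM, SRXN1, TXNRD1, FTL, HSPA5, PDIA4, HERPUD1, MANF, HYOU1, HSP90B1, CALR, XBP1, DERL3, DDIT3, CHAC1, TRIB3, SESN2, SLC6A9, SLC3A2, SLC7A5, ASNS, PCK2, HSPA6, HSPA1A, HSPA1B, CYP1A1, EDN1, ETV4, ETV1, FOXCUT, MAP2K6, MYH9, SQSTM1, GABARAPL1 and WIPI1. Leaving out vehicle library 1 ended 25 of the 187 calls, and 63 were lost in at least 1 of the fits that left out 1 of the 6 libraries.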

How the data were processed

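RNA from HEK293T cells was sequenced on the DNBSEQ platform, per the labels' protocols. The deposited table holds expected counts (estimated reads per gene, not normalized by the authors) in 33 columns, with 0.009 in place of 0. The genome build is GRCh38.p7, per the submitters' processing notes, and the aligner, counting tool, annotation and use of strand are not given in the sources used here. Of the table's values, 43.5% stood at 0.009 and were set to 0, and 3.22% were fractional and were rounded. The 98 entries that share 45 names were summed, which left 38021 genes, and 28 entries whose names have turned into dates (0.157% of counts) were kept and not named. Members and gene lists were chosen with earlier results of these data known.

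Genes were filtered with filterByExpr, scaled by TMM and fitted over all 11 conditions with edgeR 4.0.16 (R 4.3.3), whose quasi-likelihood F-test gave two-sided p-values with Benjamini-Hochberg adjustment over 17793 genes and a threshold of 0.05. Fold changes are the fitted ones, the SE is the log2 fold change divided by the square root of F, and log2 CPM per library used a prior count of 2. Library totals were 36.4 to 37.3 M, and the biological coefficient of variation was 9.09%. Named genes were the list members, the 12 largest rises and falls and the 5 largest in CPM among called genes whose groups did not overlap and whose higher mean reached 1 CPM, and by the same conditions 5 each way against 15 µM and Tg. Genes picked by their promoter letters are named as such. Alternatives were DESeq2 1.42.0, other size factors, no filter, a replicate block, fewer samples and another reference. The tests were tried on simulated data. Promoters came from RefSeq (GRCh38.p14) and gene positions are on GRCh38. Some results are not reported here.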

Additional observations from a re-analysis of the deposited data

How the results depend on the processing

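The count against vehicle was 1255. It was 75 with only the 2 conditions in the fit, 87 when an absolute log2 fold change of at least 1 was required, 2371 against AA132 0.1 and 0.3 µM, a reference added after seeing the data, and 709 to 2038 with 1 library left out, the lowest without AA132 library 1 (742 without AA132 library 2) and the highest without vehicle library 1. DESeq2 gave 1647. Against 15 µM the count was 0, with 56 when no filter on low counts was used, 4 with DESeq2 and 5 with only the 2 conditions in the fit. Against Tg the same requirement left 641 of 5305. Same-numbered libraries of vehicle and AA132 30 µM did not deviate together (correlations -0.0934, 0.0773 and -0.147), so no pairing by number was seen. The deviations were taken from each group's own mean over few libraries, so this check cannot show that the libraries are unpaired. With the replicate block the counts were 1254, 0 and 5346.

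Of 34 list medians 25 moved under some alternative by more than the SD over the medians of the 3 AA132 30 µM libraries. That yardstick leaves out the vehicle libraries, whose SD can be larger, as for the ATF6 list (0.09 against 0.02) and the glutathione list (0.10 against 0.005). None of the moved values reversed a call, and 6 medians near 0 changed sign. Against 0.1 and 0.3 µM the medians were 0.60 (ATF6), 0.14 (ER-associated degradation), 0.51 (PERK), 0.46 (amino acids), 0.074 (tRNA synthetases), 0.13 (glutathione), 0.15 (thioredoxin), 0.14 (heme and iron), -0.015 (NADPH), 0.21 (heat shock), -0.18 (AHR), 0.035 (immediate early), 0.038 (proteasome), 0.16 (NF-kB) and 0.019 (mitosis). With 1 library left out they ran from 0.63 to 0.78 (ATF6), 0.19 to 0.25 (XBP1s), 0.12 to 0.18 (ER-associated degradation), 0.57 to 0.66 (PERK), 0.54 to 0.60 (amino acids), 0.072 to 0.17 (tRNA synthetases), 0.078 to 0.15 (glutathione), 0.10 to 0.16 (heme and iron), -0.080 to -0.019 (NADPH), 0.061 to 0.21 (NRF2 regulators), 0.16 to 0.22 (heat shock), -0.44 to -0.17 (AHR), 0.071 to 0.11 (immediate early), 0.13 to 0.27 (p53), 0.053 to 0.094 (SREBP), -0.085 to 0.054 (proteasome), 0.087 to 0.14 (autophagy), 0.32 to 0.54 (zinc), -0.19 to -0.041 (TGF-beta), -0.065 to 0.063 (NF-kB), -0.089 to 0.036 (hypoxia), -0.063 to 0.10 (G1) and 0.0040 to 0.22 (snoRNA hosts). The cause of these shifts was not tested. Counts of 0 to 3 called members in a list often moved by 1 to 3 when a library was left out. Genes under about 1 CPM have few counts, and their calls rest on that depth.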
